A study of Mus musculus with 4 samples.

Results

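Malat1, Neat1, Miat, Gm26917, Peg13, Rmst, Snhg11, Pvt1 and Pantr1 are 9 noncoding RNA genes of the mouse, most of them known for transcripts that stay in the nucleus. They were chosen by name, and 8 of the 9 are symbols in the deposited expression table of 18854 genes; Peg13 was not analysed here. RNA sequencing was done on wild-type mouse cortical neurons that had spent 15 days in culture. The 2 libraries of the DMSO group came from neurons given the solvent alone, although their treatment label reads as untreated, and the 2 libraries of the p53 activator group came from neurons exposed for 2 days to Nutlin-3, a small molecule that keeps Mdm2 from binding p53. All 4 libraries were made from total RNA depleted of ribosomal RNA, so transcripts without a poly(A) tail could be counted. The sources used here give neither the dose of Nutlin-3 nor the number of animals behind a culture. Whether the libraries of a group stem from separate cultures is not stated either, so the errors and p-values cover only the spread between these samples, and that spread may be technical.

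The members were proposed with their values in these libraries known. Their levels and differences between the groups are therefore given as a description, with no test. Tests are given only for other genes, and as counts over whole gene classes to which some members belong.

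Long noncoding RNAs of the nucleus work by being transcripts rather than by coding for protein. Malat1 gathers in nuclear speckles, bodies rich in splicing factors, and Neat1 is the scaffold around which paraspeckles form, with the proteins Nono and Sfpq bound along it. Miat, also named Gomafu, lies in bodies of its own in neurons and carries repeats that splicing factor 1 (the product of Sf1) and Quaking proteins can bind. Pvt1 is the neighbour of Myc, Pantr1 starts beside the neural transcription factor gene Pou3f3, Rmst is linked to neurogenesis with Sox2, Snhg11 carries small nucleolar RNAs in its introns, and Peg13 is an imprinted gene inside an intron of Trappc9. Both Neat1 and Pvt1 have been described as genes that p53 can switch on.

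Sequence sets 3 of the members apart, and the stretches that do so are shown first because the genes tested further on encode proteins that act on them. Malat1 and Neat1 end in no poly(A) tail in their long forms. RNase P cuts off a tRNA-like piece, and the new end is held by a triple helix that an A-rich tract forms with a pair of U-rich motifs. These elements were read from GENCODE vM21 transcripts (build GRCm38), as DNA letters on the transcript strand. Bases 6598 to 6691 of Malat1-201 and bases 20672 to 20771 of Neat1-201 read as follows, with the U-rich motifs TTTCTTTT and TTTGCTTTT and the A-rich tract in capitals.
Malat1: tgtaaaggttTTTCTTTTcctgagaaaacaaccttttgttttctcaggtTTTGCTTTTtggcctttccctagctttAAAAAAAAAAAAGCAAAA
Neat1: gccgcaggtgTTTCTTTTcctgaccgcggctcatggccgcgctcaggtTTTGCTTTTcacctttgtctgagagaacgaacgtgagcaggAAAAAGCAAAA
The tract was 18 bases long in Malat1 and 11 bases in Neat1, and its last 11 bases were the same in both. Those 11 bases occurred in the longest transcript of 60 of 18214 annotated long noncoding RNA genes (0.329%). Both U-rich motifs followed by the 11 bases within 150 bases occurred in 2 of the 18214, Malat1 and Neat1 themselves. The motifs were taken from these genes, so that count describes them and tests nothing. The annotated Neat1 transcript stops at the last base of the tract, whereas Malat1-201 runs on for 292 bases. The first 60 of those bases, with which the tRNA-like piece begins, are shown here because the piece itself is not a separate symbol in the table. Where the piece ends within the 292 bases was not determined.
Malat1: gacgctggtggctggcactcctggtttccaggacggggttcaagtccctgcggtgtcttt

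Miat carries the other element. The 7 letters TACTAAC, the sequence that splicing factor 1 reads at intron branch points, occurred 6 times on the sense strand of Miat-205, all between bases 4941 and 5629 of its 9163. The sites lay in a pair of windows, printed with the sites in capitals, at bases 4931 to 5082 and at bases 5579 to 5639.
Miat: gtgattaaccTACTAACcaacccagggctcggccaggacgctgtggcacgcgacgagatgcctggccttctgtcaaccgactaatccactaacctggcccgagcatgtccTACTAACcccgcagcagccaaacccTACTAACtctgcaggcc
Miat: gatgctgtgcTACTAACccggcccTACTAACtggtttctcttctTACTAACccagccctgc
Of the longest transcripts of the 18214 long noncoding RNA genes, 3.22% held the 7 letters at all, and of the 231 that were at least 5000 bases long 18.2% did. No transcript held more than 6, and 2 held 6: Miat and AC154442.1. Among the other members Neat1 held 1 such site, and the longest transcripts of Malat1, Gm26917, Peg13, Rmst, Snhg11, Pvt1 and Pantr1 held 0. A match is a description of the letters and says nothing of binding in these neurons.

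The values are CPM, the reads of a gene scaled to a fixed total of counted reads in its library, and rest on between 14584247 and 19065197 counted reads per library. The libraries differed in composition by group: nuclear protein-coding genes took between 73.4% and 75.7% of the reads in DMSO and between 82.5% and 83.0% with the activator, and the main mitochondrial RNAs took 14.3% to 15.6% and 8.95% to 9.98%. A CPM value is a share, and a lower CPM of a noncoding RNA stands beside this shift. The differences were therefore also computed after rescaling. When each library was scaled to the total of its nuclear protein-coding genes, the median log2 fold change of all genes tested moved from 0.03 to -0.10. Of 16654 genes tested with limma at an adjusted p under 0.05, 2811 rose (16.9%) and 2721 fell (16.3%), together 33.2%. Rises were 50.8% of the calls, against 39.6% with edgeR's TMM scaling and 13.4% after scaling to protein-coding genes. The cultures carried neuronal markers (Map2 between 3564 and 4121 CPM, Rbfox3 between 99.3 and 124.8 CPM), astrocyte markers (8 of 8 listed, with a summed level of 2232 to 2255 CPM in DMSO and 2600 to 2602 CPM with the activator) and few microglial ones (3 of 7 listed, summed at 2.88 to 4.53 CPM over all libraries). Of the neuronal markers 6 of 8 rose and 1, Rbfox3, fell, and of the astrocyte markers 1 of 8 rose. All the neuronal markers had a mean of at least 100 CPM, and of all genes at that level 50.6% rose and 8.64% fell. Whether the markers differ from other genes of their level was not tested, nor was the part of the marker shifts in the results. Of the p53 targets that check the drug's action, Mdm2 had no call (log2 fold change -0.16, limma adjusted p = 0.166), nor had Cdkn1a (0.19, adjusted p = 0.215). Trp53, whose protein rather than transcript the drug acts on, had no call either (0.07, adjusted p = 0.761). Mdm2 was called lower after scaling to protein-coding genes (-0.31, adjusted p = 0.0102) and after quantile normalization (-0.24, adjusted p = 0.0455). In bulk RNA a lower level from fewer cells of a type and one from less RNA per cell cannot be told apart.

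Of the 8 noncoding RNAs analysed, 7 stood lower in both activator libraries than in both DMSO libraries, and Gm26917 stood higher in both. All 8 passed the filter on low values. Across all genes tested, groups did not overlap with the activator lower for 30.9% and with the activator higher for 36.6%. The contrast was known when the genes were chosen, so nothing is read from this count, and no calls are given for the 8. The median log2 fold change of the 8 was -0.53. After scaling to protein-coding genes the log2 fold changes were -0.72 for Malat1, -0.75 for Neat1, -0.98 for Miat, -0.76 for Snhg11, -0.62 for Pantr1, -0.39 for Rmst and -0.35 for Pvt1, and 0.42 for Gm26917. The directions were the same as in CPM. The sources used here do not say whether the counting used strand. Reads of Malat1, Miat, Rmst, Pvt1 and Pantr1 could then not be told apart from those of the genes annotated on their opposite strand (Gm37376, Gm26953, Gm26700, H2afy3 and 4930420N18Rik).

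**Figure D1:**
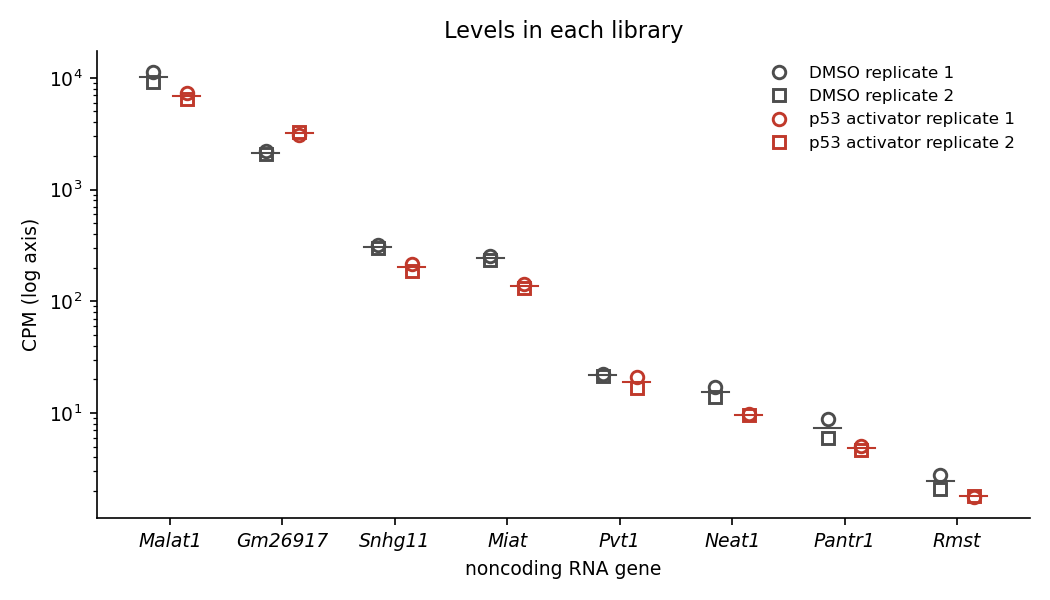
Level of each noncoding RNA in each library, in CPM on a log axis; circles are replicate 1, squares replicate 2, and short lines the group means (grey, DMSO; red, p53 activator; n = 2 each). Malat1 runs from 6426 to 11283 CPM and Rmst from 1.78 to 2.81 CPM, and Gm26917 is the 1 gene whose red symbols lie above the grey ones.

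Malat1 was by far the largest source of reads among them. Its level was 11283 and 9217 CPM with DMSO, against 7343 and 6426 CPM with the activator, which came from 164554, 137955, 139994 and 113848 reads. Both activator libraries lay below both DMSO libraries, and the lower DMSO library was 1.26 times the higher activator library, about as far apart as the DMSO replicates were from each other (1.22 times). Its log2 fold change was -0.57 ± 0.18 (SE), from 10250 ± 1461 to 6885 ± 648 CPM (SD, n = 2 each). In share of the library Malat1 went from 1.13% and 0.922% of all counted reads to 0.734% and 0.643%. At this depth counting error is small beside the spread between replicates.

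Neat1 was a rare RNA in these neurons. It stood at 17.0 and 13.8 CPM in DMSO, against 9.76 and 9.60 CPM with the activator, from 248, 207, 186 and 170 reads. The activator replicates lay within 1.02 times of each other, the DMSO replicates within 1.23 times, and the groups did not overlap. The log2 fold change was -0.61 ± 0.14 (SE), on the log2(CPM + 1) scale used throughout, which understates the change of low genes. Malat1 and Neat1 lie next to each other on chromosome 19 and share the 3′ element printed above. Neat1 gave 1.51 and 1.5 reads per 1000 reads of Malat1 in the DMSO libraries and 1.33 and 1.49 with the activator, so the pair differed between the groups by similar factors (0.672 for Malat1 and 0.628 for Neat1). The short and the long form of Neat1 share their 5′ bases and are counted under 1 symbol, so their balance cannot be read from the table.

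Miat had the largest difference relative to its error. It stood at 252 and 235 CPM in DMSO, against 143 and 130 CPM with the activator, from 3677, 3513, 2722 and 2307 reads. The lower DMSO library was 1.64 times the higher activator library, the widest gap of the 8, while replicates lay within 1.10 times of each other. Its log2 fold change was -0.83 ± 0.08 (SE). Relative to Malat1 it stood lower too, at 22.3 and 25.5 reads per 1000 reads of Malat1 in DMSO and 19.4 and 20.3 with the activator.

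Snhg11, a transcript abundant in neurons, resembled Miat in level and in direction. It stood at 318 and 299 CPM in DMSO, against 217 and 187 CPM with the activator, a log2 fold change of -0.61 ± 0.08 (SE) with no overlap between groups. Its reads per read of Miat were 1.26 and 1.27 in DMSO and 1.52 and 1.44 with the activator. GENCODE vM21 lists Snhg11 as protein coding, whereas RefSeq lists it as a long noncoding RNA. Among the small nucleolar RNAs in its introns Gm25129 and Gm25187 are symbols of their own, with 14, 20, 17 and 18 reads and 13, 15, 14 and 12 reads in the DMSO and then the activator libraries, too few to show a difference of that size.

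The other members of lower level were spread more widely. Pantr1 stood at 8.78 and 5.95 CPM in DMSO, against 5.09 and 4.63 CPM with the activator, a log2 fold change of -0.49 ± 0.17 (SE). The DMSO replicates of Pantr1 differed by 1.48 times, more than the 1.17 times that separated the groups at their nearest libraries, and without DMSO replicate 1 its log2 fold change was -0.25. Rmst stood at 2.81 and 2.07 CPM in DMSO, against 1.78 and 1.81 CPM with the activator, on 41, 31, 34 and 32 reads. Its log2 fold change of -0.29 ± 0.20 (SE) rests on these few reads, and without DMSO replicate 1 it was -0.14. Pvt1 stood at 22.4 and 21.3 CPM in DMSO, against 21.0 and 16.8 CPM with the activator. Its nearest libraries of the 2 groups differed by 1.01 times, and without p53 activator replicate 2 its log2 fold change went from -0.21 to -0.05.

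Gm26917 went the other way. It stood at 2199 and 2081 CPM in DMSO, against 3078 and 3303 CPM with the activator, from 32072, 31155, 58677 and 58519 reads, a log2 fold change of 0.58 ± 0.12 (SE). The lower activator library was 1.4 times the higher DMSO library. Reads of Gm26917 per read of Malat1 were 0.195 and 0.226 in DMSO and 0.419 and 0.514 with the activator, and its part of all reads on the 8 genes went from 15.6% and 17.5% to 28.5% and 32.8%. Its place in the genome is unlike that of the others. In GENCODE vM21 it ends 12 bases before CT010467.1, annotated as ribosomal RNA, on chromosome 17, and 69.1% of the bases of its longest transcript are G or C, against 41.6% to 55.1% for the longest transcripts of the other 8. Whether reads from ribosomal RNA were counted under this symbol was not tested.

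Other symbols put on a list for their link to ribosomal RNA did not all follow Gm26917. The list held 13, of which 8 are in the table, Gm26917 among them. It includes mt-Rnr1 and mt-Rnr2, ribosomal RNAs of the mitochondrial genome. Whether Gm15564, Mir6236, Lars2 and Zc3h7a lie in or beside ribosomal RNA repeats was not checked. AY036118, 772 bases beyond Gm26917 and on the other strand, stood at 19.1, 17.3, 19.98 and 19.98 CPM (log2 fold change 0.13 ± 0.12 SE, limma adjusted p = 0.42). Gm15564 rose from 2.19 and 2.54 to 6.19 and 14.8 CPM, and Mir6236 from 2.13 and 1.54 to 4.09 and 8.07 CPM (limma adjusted p = 1.04e-11 and 1.95e-07). Lars2 (0.16, limma adjusted p = 0.250) and Zc3h7a (-0.17, adjusted p = 0.161) had no call. The mitochondrial ribosomal RNA mt-Rnr1 fell from 363 and 372 to 137 and 249 CPM (log2 fold change -0.99, adjusted p = 1.06e-14), a call lost under limma's robust variance model (adjusted p = 0.268), without its mean trend (0.0506) and in DESeq2 (0.133). Without p53 activator replicate 1 its log2 fold change was -0.56. mt-Rnr2, the larger mitochondrial ribosomal RNA, stood at 66082 and 62323 CPM in DMSO, against 34313 and 38024 CPM with the activator (-0.83, limma adjusted p = 0.0662). It was called lower in 10 of 16 alternatives, among them edgeR (adjusted p = 0.0011) and scaling to protein-coding genes (0.000441), but not when either activator library was left out (0.741 and 0.652). Gm15564 had a log2 fold change of 1.67 with all libraries and 1.10 without p53 activator replicate 2, and Mir6236 one of 1.27 and 0.85, and both passed the test either way.

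**Figure D2:**
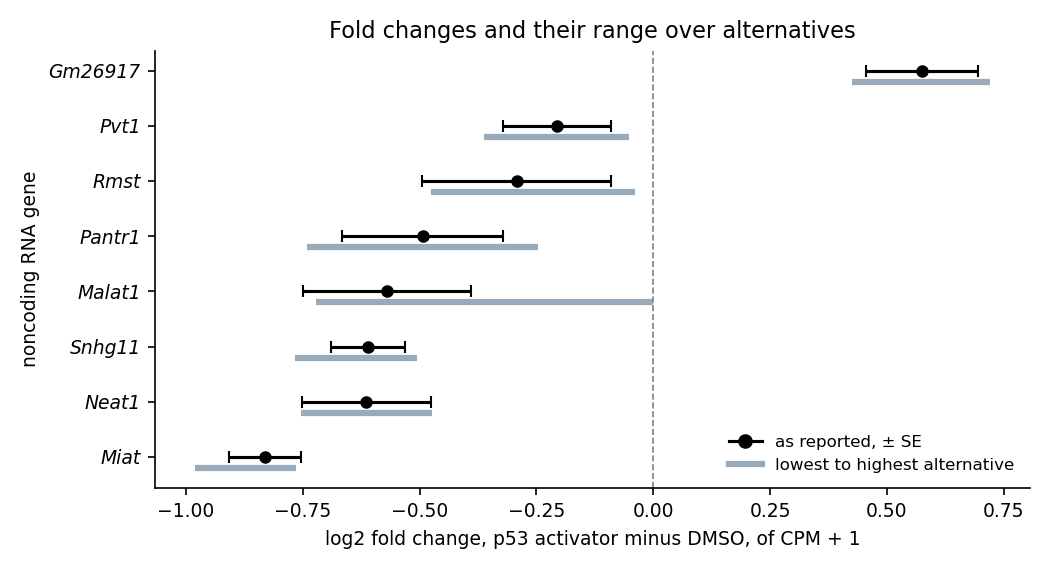
Log2 fold change of each noncoding RNA (black, ± SE) and the range of the same value over the alternative settings (grey-blue bars). The bar of Malat1 reaches 0.00 under quantile normalization, where a gene with the same rank in every library can show no difference; Gm26917 stays above 0 and the other 6 stay below it.

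Divided by exonic length the levels keep a wide order, which can be compared between genes where CPM cannot. In DMSO, Malat1 had a mean of 1468 CPM per kb of annotated exons and Gm26917 of 643, followed by Snhg11 (36.2), Miat (26.2), Pvt1 (3.12), Pantr1 (1.65), Neat1 (0.742) and Rmst (0.329). No neighbours in that order overlapped within DMSO. With the activator Malat1 (920 to 1052 CPM per kb) and Gm26917 (925 to 992) did overlap, and the rest of the order was the same. By level Malat1, Gm26917, Snhg11 and Miat were thus abundant, and the other 4, which stood at 1.78 to 22.4 CPM, were not. Where in the cell the RNAs lay was not measured. Neat1 was divided here by the 20.8 kb of its long form; over the 3004 bases of the short transcript Neat1-202 its mean in DMSO would be 5.13 CPM per kb, above Pvt1.

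The 8 genes were set beside all annotated long noncoding RNAs as a background. Of 1053 long noncoding RNAs tested, which include 7 of the 8, 422 fell (40.1%) and 15 rose (1.42%), together 41.5%, and the groups did not overlap with the activator lower for 65.3% and higher for 6.27%. Their median log2 fold change was -0.37, against 0.09 for 12763 nuclear protein-coding genes, of which 918 fell (7.19%) and 2706 rose (21.2%), together 28.4%. For those the groups did not overlap with the activator lower in 19.8% and higher in 45.2%. Among the 19 annotated long noncoding RNAs with a mean of at least 100 CPM, 13 fell and 4 rose, with a median of -0.83. Class membership rests on the annotation of each symbol. Whether all 19, Cct6a (0.31) and Bc1 (-3.21) among them, are long noncoding RNAs was not checked. The 19 include Malat1 (-0.57), Miat (-0.83) and Gm26917 (0.58), so these counts are not independent of them. Of the 19, Kcnq1ot1, Meg3, Gm26871, Gm26803, Gm20387, Gm15521, Gm32849, Gm4258 and Bc1 had more negative log2 fold changes than Miat.

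**Figure D3:**
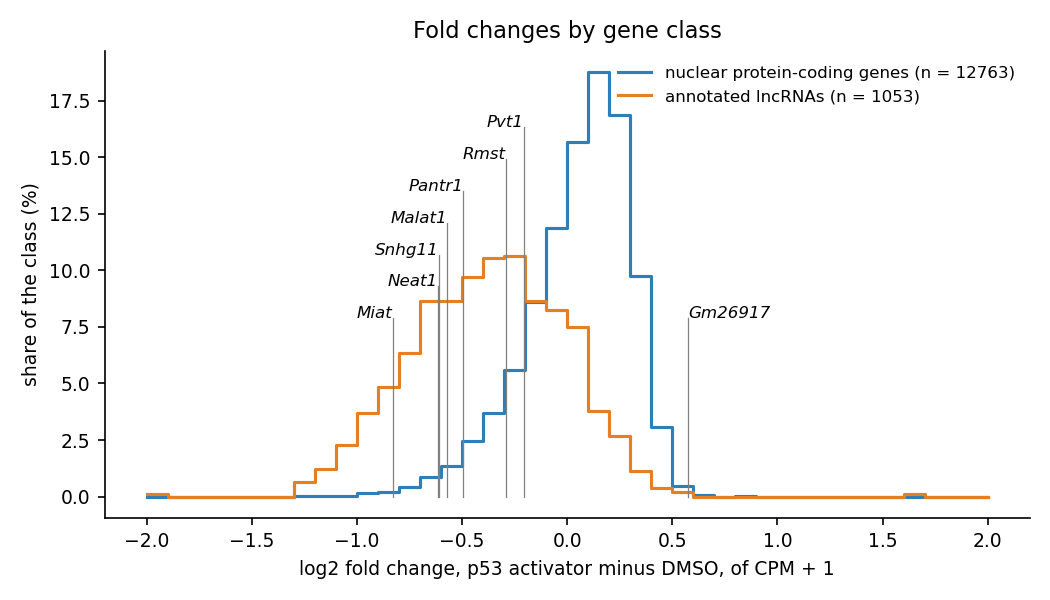
Share of genes (%) in bins of log2 fold change for 12763 nuclear protein-coding genes (blue) and 1053 annotated long noncoding RNAs (orange), with the noncoding RNAs described here marked by grey lines; the outermost bins also hold all values beyond them. Miat, Neat1, Snhg11, Malat1, Pantr1, Rmst and Pvt1 lie where the orange outline is above the blue one, and Gm26917 lies to the right of most genes of both classes.

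Of 16 tested on a list of other nuclear long noncoding RNAs, 12 fell and 3 rose, beside 16.3% and 16.9% of all genes. On the log2 scale their median stood at -0.47, against 0.03 for all genes. Of annotated long noncoding RNAs, 40.1% fell and 1.42% rose, with a median of -0.37. Among the 169 of these with a mean of at least 10 CPM, 65.7% fell and 7.10% rose, with a median of -0.57. That class includes genes of this list, such as Meg3, and whether the list differed from it was not tested. Kcnq1ot1, which silences genes of its imprinted domain, fell from 830 and 756 to 416 and 358 CPM (log2 fold change -1.03 ± 0.09 SE, limma adjusted p = 7.92e-19). Meg3, a maternally expressed imprinted RNA, fell from 1833 and 1575 to 978 and 829 CPM (-0.92 ± 0.10, adjusted p = 7.73e-13). Snhg14, the long transcript across the Ube3a region, fell by 0.73 on the log2 scale (adjusted p = 4.40e-10). Pantr2, the partner of Pantr1 on the far side of Pou3f3, fell from 2.06 and 1.87 to 1.36 and 0.790 CPM (adjusted p = 0.0435). The call of Pantr2 lay next to the threshold and rests on 30, 28, 26 and 14 reads, in the DMSO and then the activator libraries.

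The 3 that rose were Tug1, Norad and Oip5os1, named after their values were seen. Tug1, found in nucleus and cytoplasm, rose from 320 and 355 to 448 and 438 CPM (log2 fold change 0.39 ± 0.08 SE, limma adjusted p = 5.87e-05), and also after scaling to protein-coding genes (0.24, adjusted p = 0.00891), but not in limma without a mean trend (0.0544). Norad and Oip5os1, which are known mostly from the cytoplasm although they were put on this list, rose by 0.26 and 0.23 on the log2 scale (adjusted p = 0.0111 and 0.0140), and neither call held after that scaling (adjusted p = 0.283 and 0.440). Rian had no call (-0.00 ± 0.09, adjusted p = 0.993), with 650 and 673 CPM in DMSO and 700 and 623 CPM with the activator. Of the list, 6 genes fell without DMSO replicate 1 and 7 without p53 activator replicate 2, and 1 rose without p53 activator replicate 1.

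Host genes of small nucleolar RNAs are the class to which Snhg11 belongs by name. Of 17 tested, Gas5 was the 1 that fell, from 23.5 and 23.0 to 15.3 and 17.9 CPM (log2 fold change -0.47 ± 0.12 SE, limma adjusted p = 0.000929), and 0 rose, beside 16.3% and 16.9% of all genes and 40.1% and 1.42% of long noncoding RNAs. The list's median was -0.22. Its levels were low, with 16 of the 17 below 10 CPM in every library, and Snhg17 (-0.38, adjusted p = 0.0512) lay next to the threshold.

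**Figure D4:**
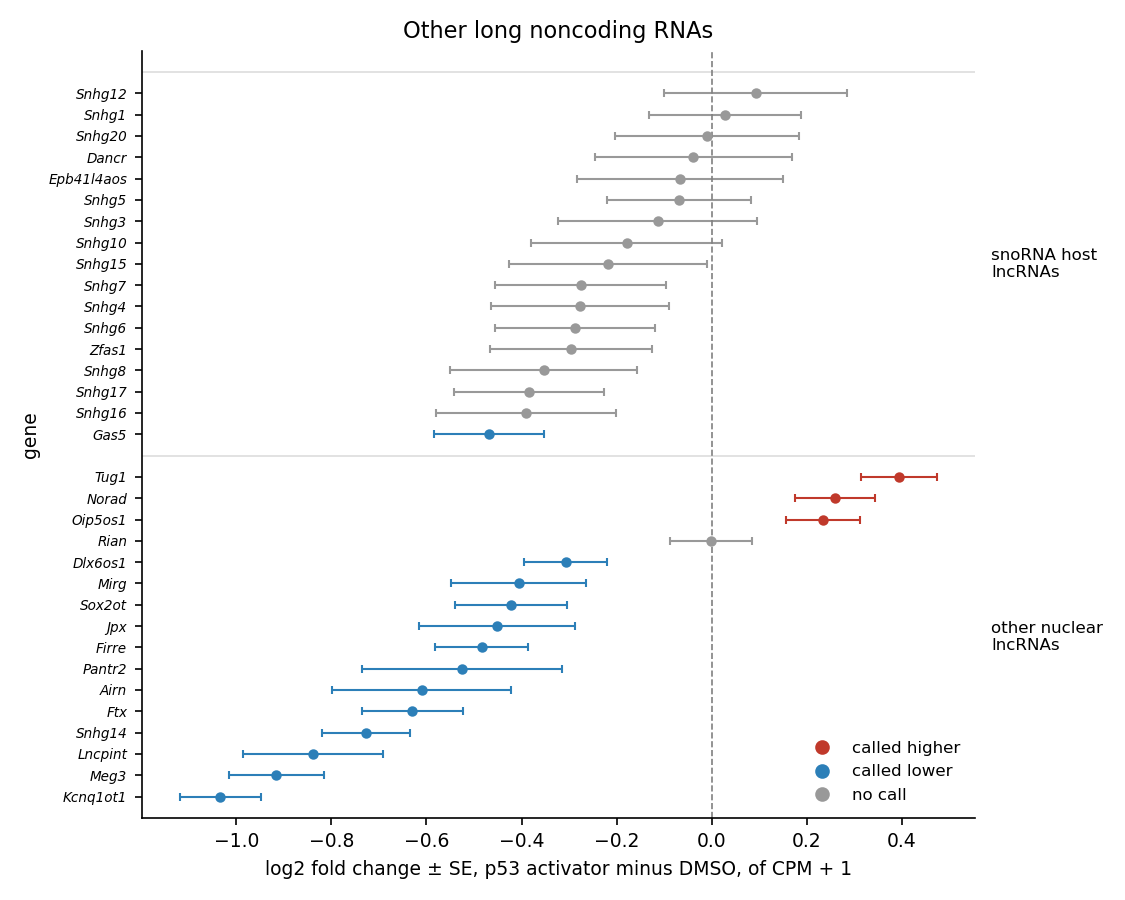
Log2 fold change (± SE) of 16 other nuclear long noncoding RNAs and 17 host genes of small nucleolar RNAs, by limma; blue marks genes called lower, red genes called higher and grey genes with no call. The blue points of the nuclear list reach from -1.03 (Kcnq1ot1) to -0.31 (Dlx6os1).

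Long noncoding RNAs linked to p53 formed another list. Besides Neat1 and Pvt1, the list held Trp53cor1 (lincRNA-p21), Lncpint, Tug1, Meg3 and Gas5 among those tested. Of these 5, Tug1 rose, and Lncpint, Meg3 and Gas5 fell. Among all genes 16.9% rose and 16.3% fell, and among annotated long noncoding RNAs 1.42% and 40.1%. Each of the genes called is also on a list given above, so these calls are not new ones. Lncpint, an RNA that p53 is known to induce, fell from 14.3 and 13.4 to 8.39 and 6.32 CPM (log2 fold change -0.84 ± 0.15 SE, limma adjusted p = 3.18e-06). Trp53cor1 gave 2.47 and 3.14 CPM in DMSO and 2.47 and 2.71 CPM under the activator (-0.08, adjusted p = 0.787).

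The proteins that work with these RNAs were followed through their genes. On 4 lists together (proteins of paraspeckles and of nuclear speckles, splicing factors that bind Miat, and the machinery that cuts and guards the ends of Malat1 and Neat1), 50 genes were tested, of which 13 fell and 3 rose (beside 16.3% and 16.9% of all genes tested). Their median log2 fold change was -0.05, against 0.03 for all genes and 0.09 for nuclear protein-coding genes. Of the latter, the class of most genes on these lists, 7.19% fell and 21.2% rose. Whether the count on the lists differs from that class was not tested. The count is sensitive to single libraries: 5 fell without DMSO replicate 1 and 8 without p53 activator replicate 1, and 1 rose without either of them.

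Paraspeckle proteins include the pair that coats Neat1, and that pair split. Sfpq, which together with Nono is needed to keep Neat1 stable, fell from 293 and 260 to 214 and 199 CPM (log2 fold change -0.42 ± 0.08 SE, limma adjusted p = 1.15e-05). Nono rose from 75.5 and 77.0 to 90.1 and 96.8 CPM (0.29 ± 0.08, adjusted p = 0.00319), but not after scaling to protein-coding genes (0.14, adjusted p = 0.185), without DMSO replicate 1 (0.0573) or without p53 activator replicate 2 (0.0643). Of 18 genes on the list 6 fell and 2 rose, beside 7.19% and 21.2% of nuclear protein-coding genes. Taf15 (-0.41), Hnrnpr (-0.30), Hnrnpf (-0.28), Hnrnph1 (-0.24) and Hnrnph3 (-0.56) fell as well, and Hnrnpk, which favours the long form of Neat1, rose by 0.21 (adjusted p = 0.0265), a call lost when any 1 library was left out. Without DMSO replicate 1, Sfpq and Hnrnpr were the 2 genes of the list that fell, and in limma without a trend 0 did. Without p53 activator replicate 1, 3 fell. Pspc1, Rbm14 and Tardbp had no call (log2 fold changes -0.03, -0.14 and -0.02).

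Of 17 proteins of nuclear speckles, where Malat1 gathers, 6 fell and 1 rose, beside 7.19% and 21.2% of nuclear protein-coding genes. Pnn fell from 35.2 and 33.1 to 19.2 and 22.6 CPM (log2 fold change -0.69 ± 0.11 SE, limma adjusted p = 1.09e-07). Srsf11 (-0.36), Srrm1 (-0.36), Srsf5 (-0.36), Srsf4 (-0.32) and Acin1 (-0.21) fell, and Rnps1 rose by 0.30 (adjusted p = 0.0139), a call lost without replicate 1 of DMSO (0.168) or of the activator (0.179). The 2 proteins that form the core of speckles had no call: Son stood at 401, 384, 401 and 412 CPM and Srrm2 at 442, 458, 432 and 448 CPM.

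Of 3 splicing factors that bind Miat, 0 passed the test, beside 28.4% of nuclear protein-coding genes. Sf1, whose product reads the TACTAAC letters printed above, stood at 48.2 and 44.2 CPM in DMSO, against 47.0 and 47.9 CPM with the activator (log2 fold change 0.04 ± 0.09 SE, limma adjusted p = 0.777). Celf3 (-0.08, adjusted p = 0.491) and Srsf1 (0.15, adjusted p = 0.116) had no call either. After scaling to protein-coding genes Celf3 was called lower (-0.23, adjusted p = 0.0241), and with the replicate block Srsf1 was called higher (adjusted p = 0.0425). The 95% interval of the log2 fold change of Sf1 ran from -0.14 to 0.22, and it covers only the spread between these samples.

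Factors that cut and protect the 3′ ends showed 1 call in 13, beside 28.4% of nuclear protein-coding genes. Pop1, the largest protein of RNase P, fell from 21.3 and 20.6 to 15.9 and 16.3 CPM (log2 fold change -0.36, limma adjusted p = 0.0116), a call lost without DMSO replicate 1 (0.109) or p53 activator replicate 1 (0.0539). Rpph1, the RNA of RNase P, stood at 755 and 619 CPM in DMSO, against 686 and 837 CPM with the activator (0.15, adjusted p = 0.211), and its groups overlapped. Elac2, which trims the far end of the tRNA-like piece, and Mettl16, which binds the triple helix of Malat1, had no call (0.06 and -0.10). Of the partners of Rmst, Hnrnpa2b1 fell from 155 and 138 to 105 and 115 CPM (-0.41, adjusted p = 1.87e-05), a call lost in limma without a trend (0.0577), while Sox2 had no call (-0.19, adjusted p = 0.192).

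**Figure D5:**
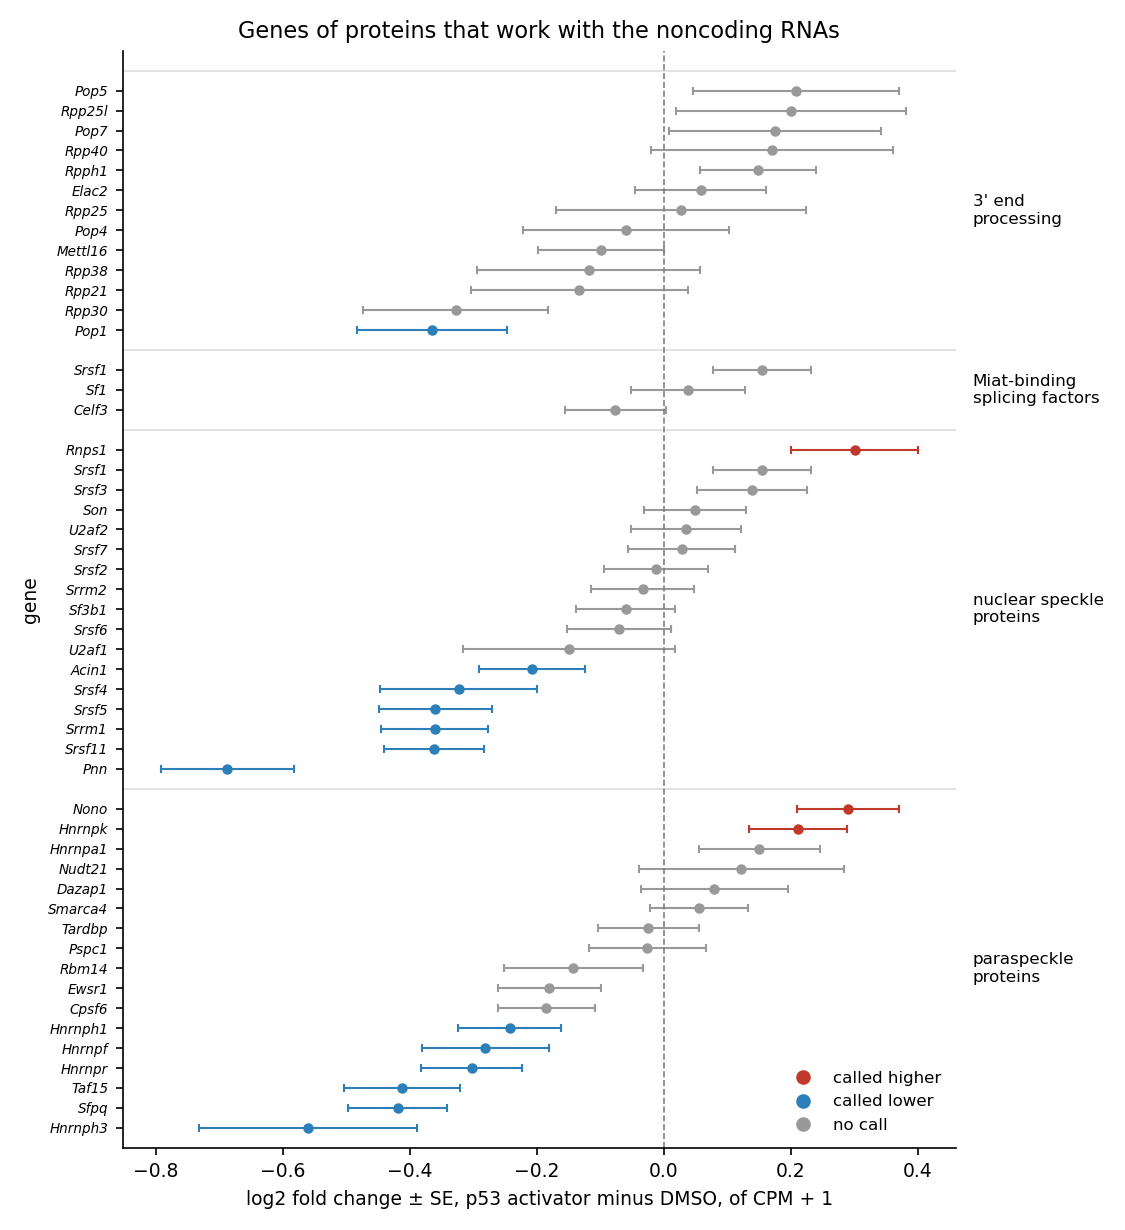
Log2 fold change (± SE) of 49 of the 50 tested genes for paraspeckle proteins, nuclear speckle proteins, Miat-binding splicing factors and the 3′ end machinery, by limma; blue marks genes called lower, red genes called higher and grey genes with no call, and Srsf1 is on 2 of the lists. Pnn lies farthest to the left at -0.69, and the 3 red points are Nono, Hnrnpk and Rnps1.

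Genes in the neighbourhood of the members in the genome, Peg13 included, were listed next. Of these, 12 were tested, of which 2 rose and 0 fell. Among all genes 16.9% rose and 16.3% fell, and among nuclear protein-coding genes 21.2% and 7.19%. With the replicate number as a block 5 rose, and 0 rose with edgeR, with DESeq2 or after scaling to protein-coding genes. Frmd8, beside Neat1, stood at 5.28, 5.34, 7.34 and 6.94 CPM (log2 fold change 0.37, limma adjusted p = 0.0806). Pou3f3, whose gene starts 0.9 kb from that of Pantr1, stood at 76.2, 73.0, 73.4 and 75.4 CPM (-0.00 ± 0.08 SE, adjusted p = 0.984). Myc, beside Pvt1, stood at 8.91, 6.81, 6.61 and 8.07 CPM (-0.08, adjusted p = 0.729). Ralgapb beside Snhg11 (0.18, adjusted p = 0.0694) and Nedd1, 519.6 kb from Rmst (0.16, adjusted p = 0.519), had no call. Trappc9, in whose intron Peg13 lies, and Tpst2, on the chromosome of Miat, were the 2 that rose (0.22 and 0.34, adjusted p = 0.0412 and 0.0421), and each call was lost in 9 of 16 alternative settings. Those include leaving out p53 activator replicate 2 (adjusted p = 0.239 for Trappc9 and 0.176 for Tpst2) or either DMSO replicate.

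The profiles most like those of the 3 best-known RNAs were found over the 4 libraries among 9706 genes with a mean of at least 10 CPM, by the distance between log2(CPM + 1) values centred on each gene's mean. For Malat1 these were Gm19417 (distance 0.0063), Thsd1 (0.0427) and Ttn (0.0504). For Neat1 they were Egfros (0.0492), Gm5859 (0.0503) and Gm26703 (0.0520), and for Miat Gm51897 (0.0139), Polq (0.0202) and Gm34353 (0.0346). With 4 libraries such likeness mostly says that the genes share a fold change.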

How the data were processed

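RNA was sequenced from 4 libraries of wild-type cortical neurons, 2 per group. The deposited values are CPM, read counts scaled to the total of each library, in 1 table of 18854 gene symbols. Per the submitters' processing notes, TopHat2, Cufflinks 2.0.0 and the mm9 build were named, with no roles. The sources used here name no counter, annotation or use of strand, so no genome coordinates are printed. All values were whole reads within 0.01 of a read, which gave each library's depth and allowed edgeR 4.0.16 and DESeq2 1.42.0 as alternatives (edgeR called 1869 genes higher and 2846 lower).

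Differences were fitted with limma 3.58.1 (R 4.3.3; trend) on log2(CPM + 1) for 16654 genes that reached 1 CPM in 2 or more libraries, over all 4 libraries, two-sided. The p-values were Benjamini-Hochberg adjusted over all genes tested, with a threshold of 0.05. Residual degrees of freedom were 2. The moderated variances drew on a further 98.0 prior degrees of freedom, taken from all genes. The SEs, intervals and p-values rest largely on these. Data were simulated for this comparison (10 runs, 200 genes changed, a median of 16563.5 genes tested). In genes of at least 5 CPM, 81.8% of changes of 1.5-fold and 98.4% of 2-fold were recovered, with 2.47% false calls. The simulation changed as many genes up as down, with no shift in composition and with independent replicates. In the real libraries 33.2% of genes were called and the composition shifted, so these rates need not hold there.

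Gene classes, exonic lengths and sequences came from GENCODE vM21, by symbol (15861 symbols matched 1 gene). The members and lists were chosen with earlier results of these data known. The rule for named genes took all members, the 3 genes of smallest p on each list, neighbours, ribosomal RNA symbols, Trp53, Mdm2, Cdkn1a and the nearest profiles; further genes of the lists, and abundant long noncoding RNAs, were named after their values were seen. The alternatives changed the pseudocount, filter, scaling, variance model, tool, replicate block or left out 1 library. Some genes of the lists are counted but not reported here by name.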

Additional observations from a re-analysis of the deposited data

How the results depend on the processing

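Some named genes, such as Hnrnpf, Srsf5, Acin1 and Pantr2, were not followed through the 16 alternatives. Of those that were followed, none that passed the test as reported changed sign. Genes with no call did, among them Sf1 (-0.11 to 0.10), Trp53 (-0.06 to 0.18), Rpph1 (-0.02 to 0.29), Nedd1 (-0.08 to 0.41), Myc (-0.25 to 0.09), Pou3f3 (-0.15 to 0.03), AY036118 (-0.01 to 0.20), Lars2 (-0.02 to 0.34) and Rian (-0.20 to 0.08), and the median of all genes went from 0.03 to -0.10 after scaling to nuclear protein-coding genes. Against 2811 genes higher, the count was 1307 with DESeq2, 1869 with edgeR, 302 in limma without a trend, 1632 after quantile normalization, 580 after scaling to nuclear protein-coding genes, and 1140 to 2119 when 1 library was left out. Against 2721 genes lower it was 1776 with a filter of 5 CPM, 1508 with DESeq2, and 1367 to 2543 when 1 library was left out. Rises were 13.3% of the calls without a trend and 61.8% with the 5 CPM filter. For partner protein genes, 3 higher became 0 after quantile normalization, 0 after scaling, 0 without a trend, 1 with DESeq2 and 1 to 2 with a library left out; 13 lower became 7 with DESeq2, 1 without a trend, 20 after scaling and 5 to 12 with a library left out. For other long noncoding RNAs, 3 higher became 1 with edgeR, 1 after quantile normalization, 1 after scaling, 0 without a trend, 2 with DESeq2 and 1 to 3 with a library left out; 13 lower became 8 with DESeq2 and 7 to 12 with a library left out. The cause of these shifts was not tested. With the replicate number as a block, 3705 genes were higher and 3132 lower, 4 and 16 of the partner genes, and 3 and 14 of the other long noncoding RNAs. Same-numbered libraries deviated together with a correlation of 0.265 over 9706 genes, but 2 pairs are too few to take the numbers as pairing. Among the members, log2 fold changes ranged from -0.72 to 0.00 for Malat1, -0.75 to -0.47 for Neat1, -0.98 to -0.76 for Miat, 0.42 to 0.72 for Gm26917, -0.77 to -0.50 for Snhg11, -0.36 to -0.05 for Pvt1, -0.74 to -0.25 for Pantr1 and, over the 15 alternatives that kept it, -0.48 to -0.04 for Rmst, whose 31 to 41 reads per library limit its precision.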
